A study of Mus musculus with 3 samples.

Results

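The solute carrier promoters are the DpnII restriction fragments, captured for a promoter interaction map of mouse erythroid cells, whose viewpoint name carries a gene symbol of the Slc family. Of 7197 viewpoints listed, 131 had such a name. The 5 erythroid carriers Slc25a37, Slc25a38, Slc4a1, Slc11a2 and Slc40a1 were set aside, as were 2 viewpoints that shared the name Slc29a1, which left 124 viewpoints naming 115 Slc genes. In all, 7176 viewpoints had an unshared name and listed contacts, and these formed the comparison. The rule for the members used names and no measured value, although they were chosen with earlier results of these data known.

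Nuclear-titrated Capture-C ligates DNA ends that lie close together in fixed nuclei and enriches the junctions that involve chosen fragments with biotinylated oligonucleotides. The material was 3 libraries of ter119+ erythroid cells from mouse spleens. For such cells the study's methods name C57BL/6 or F1 hybrid C57BL/6-cross-CBA/J mice. The mice received 3 doses of phenylhydrazine, a drug that lyses red cells, and were killed on day 5. Cells carrying ter119, a surface marker of late erythroid precursors, had been selected with antibody, and every library belonged to this one group, so no untreated or non-erythroid control was compared. The 3 libraries, called a, b and c here, were deposited as values per 100000 contacts of each viewpoint, from which whole ligation events were worked back.

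Solute carriers are membrane proteins that move ions, sugars, amino acids, nucleotides, metals and organic acids across the plasma membrane or into organelles. Maturing red cells depend on several of them: mitochondrial carriers feed heme synthesis, metal carriers supply copper and zinc, and carriers of anions and urea bear on the volume of the mature cell. A promoter that is active commonly ligates to distal enhancers and to other active promoters in the same domain, and a capture experiment counts those ligations beside the much larger number that follow from short distance along the chromosome. Viewpoints Slc9a3r1, Supt7l_Slc4a1ap and the like carry an Slc symbol although the protein itself is no transporter, and they were kept because the rule is the name. Of the 124 members, 23 also name another gene. Side and gene body were read from the Slc gene alone, so contacts of these 23 cannot be assigned to the carrier.

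The sequences that follow show a limit of the contact maps in this family and the letters shared by several promoters. The Slc22a5 viewpoint on the plus strand of mm9, chr11:53704119-53704332, and the upstream fragment that held 33.4%, 31.6% and 32.7% of its events from 2.5 kb to 1 Mb in libraries a, b and c, chr11:53792445-53792658 in Slc22a21, began with the same bases. Over the 214 bases shown they had 208 in common and differed at 6, which are in capitals, and the longest identical run was 81 bases. These are only the first bases of fragments of 2059 and 780 bases. The stretch was cut where the longest identical run ends, and the likeness of the rest is not reported here.
Slc22a5 viewpoint: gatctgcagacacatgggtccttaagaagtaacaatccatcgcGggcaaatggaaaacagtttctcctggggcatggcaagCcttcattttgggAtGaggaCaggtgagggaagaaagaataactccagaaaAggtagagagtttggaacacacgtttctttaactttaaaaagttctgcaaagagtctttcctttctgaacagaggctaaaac
Slc22a21 fragment: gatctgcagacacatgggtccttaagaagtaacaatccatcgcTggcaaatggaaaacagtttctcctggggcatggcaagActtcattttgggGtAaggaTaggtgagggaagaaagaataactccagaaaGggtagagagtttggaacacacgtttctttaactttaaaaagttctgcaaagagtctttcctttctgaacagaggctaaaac

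Among the captured promoter fragments themselves, the palindrome CACGTG, the E-box read by USF, MYC and MITF family factors, occurred in 33 of 124 solute carrier fragments (26.6%) and in 19.3% of all 7176. The letters AGATAA, read by GATA factors, were present on either strand in 23 members (18.5%, against 20.2% of all), and TGATAA in 19 (15.3%, against 15.8%). The 3 stretches below, with the E-box in capitals and each on the minus strand of mm9, which is the strand of the gene, come from promoters whose contacts are described further on, and the first of them holds it 2 times.
Slc35a5_Atg3 (chr16:45158812-45158911): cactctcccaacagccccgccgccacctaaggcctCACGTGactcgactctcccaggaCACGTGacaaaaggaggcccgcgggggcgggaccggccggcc
Slc16a6_Arsg (chr11:109334578-109334677): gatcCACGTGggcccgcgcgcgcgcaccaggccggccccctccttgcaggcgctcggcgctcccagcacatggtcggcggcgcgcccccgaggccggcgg
Slc25a51 (chr4:45421637-45421736): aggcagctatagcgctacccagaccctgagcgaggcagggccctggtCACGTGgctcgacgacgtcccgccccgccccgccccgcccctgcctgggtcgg
The fragments were short, with a median of 665 bp (138 to 2854 bp) against 742 bp over all viewpoints. They had a median GC content of 61.6% against 59.1% and, like all viewpoints, a median of 2 other viewpoints within 100 kb.

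Depth differed between members by 3 orders of magnitude. The members held 297625 cis events in library a, 536599 in b and 533464 in c, which were 1.63%, 1.56% and 1.56% of each library. Summed over libraries, a member had a median of 6154.5 events (quartiles 2455.5 and 10572), against 6481.5 over all viewpoints. At least 1000 events, the minimum for the comparisons below, were reached by 115 of 124 members (92.7%, exact binomial 95% interval 86.7 to 96.6%, counting error only) and by 93.6% of all viewpoints. The 9 below it included Slc48a1_b, of a heme transporter, with 97, 178 and 164 events in a, b and c, and Slc30a1, of a zinc exporter, with 227, 374 and 349.

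The lowest of all was Slc43a3, a carrier of purine bases, with 31, 51 and 52 events, followed by Erh_Slc39a9 with 59, 94 and 104 and Slc44a2, a choline carrier, with 86, 132 and 116. Just above 1000 events in the sum stood Slc37a1_b, a sugar phosphate carrier promoter, with 256, 385 and 411, Slc25a25, a mitochondrial ATP-magnesium carrier, with 293, 377 and 423, and the glucose carrier Slc2a8 with 343, 379 and 443. The highest was Slc25a36, a mitochondrial pyrimidine nucleotide carrier, with 31708, 56125 and 54691 events, followed by Slc17a5, the lysosomal sialic acid exporter, with 18983, 35321 and 34925. Both lie on a stretch of chromosome 9 (50411503 to 99476096) where, as on chromosome X, viewpoints were deep as a class. Slc25a53 and Slc25a5, the adenine nucleotide translocase expressed in most tissues, were the deep members of chromosome X, with 73793 and 38443 events in the sum, whereas Slc25a14 on the same chromosome had 1356.

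The next 3 in rank lie outside those regions and were the only members on the study's list of inactive control promoters. Slc15a5, of the peptide transporter family, had 16769, 34289 and 34543 events, Slc30a4, a zinc transporter, 19848, 32101 and 32600, and Slc45a1, a sugar carrier, 15602, 30770 and 31432. These 3 viewpoints supplied 17.5%, 18.1% and 18.5% of all member events in a, b and c. The same held for the list as a whole: outside the deep regions its 170 viewpoints had a median of 69332 events, and the 6647 viewpoints not on it 5970. The activity of a promoter and its place in a separate part of the oligonucleotide design cannot be told apart here, so depth was not read as a property of the gene.

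**Figure D1:**
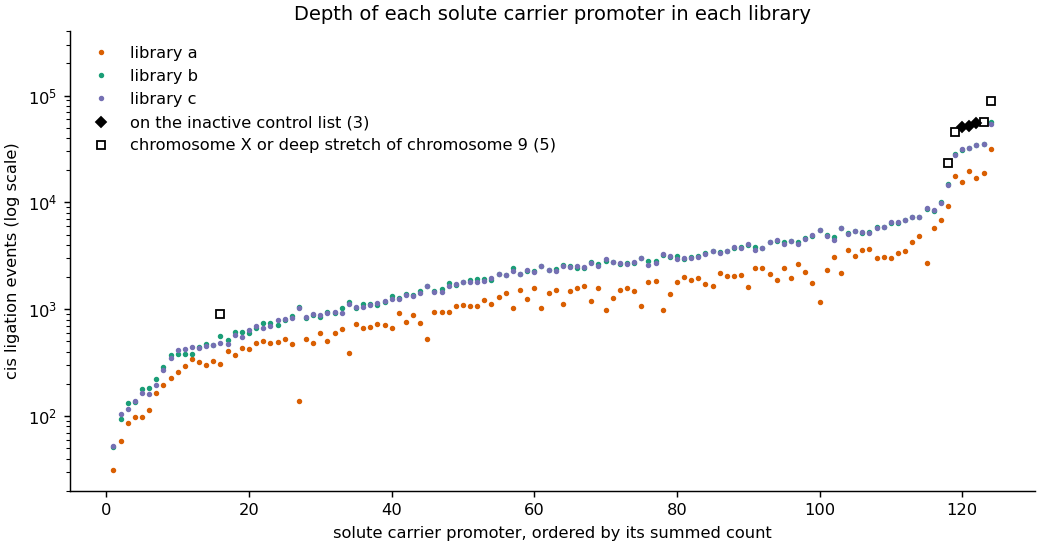
Cis ligation events of each of the 124 solute carrier promoters (log scale) in libraries a, b and c, ordered by their sum. The 3 promoters on the inactive control list (filled diamonds, drawn above their points) and 4 of the 5 in the deep regions (open squares) form the step at the right end.

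Libraries b and c repeated each other. Between b and c, the split of events over the 6 distance ranges within each member had a chi-square of 0.94 per degree of freedom, against 4.52 for a and b and 4.31 for a and c, and the split over members had 1.47, against 52 and 56.3. At single fragments from 10 to 100 kb, the chi-square per degree of freedom was 0.966 for b and c and 0.999 and 0.99 for the pairs with a. Since b and c differed by no more than the sampling noise within members, they were counted as 1 sample, and every mean ± SD below has n = 2 (library a, and the mean of b and c). The study describes its 3 libraries as independent. Nothing in the sources used here ties the libraries to separate animals, so the spread may be technical.

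Library a also held fewer events, a median of 0.61 times the mean of b and c over members. Slc33a1, the acetyl-CoA carrier of the endoplasmic reticulum, stood lowest at 0.133 times, followed by Slc38a6_Trmt5 at 0.213 and Slc25a20, the mitochondrial carnitine carrier, at 0.304. The fragments of these 3 are 1667, 1656 and 1693 bp long, more than 2 times the median of the members, and the part of fragment length in this was not tested.

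Contacts spread over distance much as for other promoters. From 10 to 100 kb, the median member placed 18.5%, 16.2% and 15.8% of its cis events in a, b and c (17.3% ± 1.81), against 16.4% ± 1.32 over all viewpoints. From 100 kb to 1 Mb the members' median was 19.4% ± 0.0551, against 19.8% ± 0.64, and beyond 10 Mb it was 31.5% ± 2.71, against 33.3% ± 2.34. Both sets were read in the same libraries, so the differences were also taken within each. Members minus all viewpoints gave 1.17, 0.713 and 0.258 percentage points in a, b and c at 10 to 100 kb and -2.05, -1.49 and -1.54 beyond 10 Mb, the same sign in each library, whereas from 100 kb to 1 Mb the sign was mixed (-0.811, -0.2 and 0.232). These differences were not tested. Between families, the medians at 10 to 100 kb ran from 13.9% ± 1.13 for the 11 zinc and other metal carriers of the Slc30 and Slc39 families to 21.9% ± 2 for the 5 phosphate carriers.

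**Figure D2:**
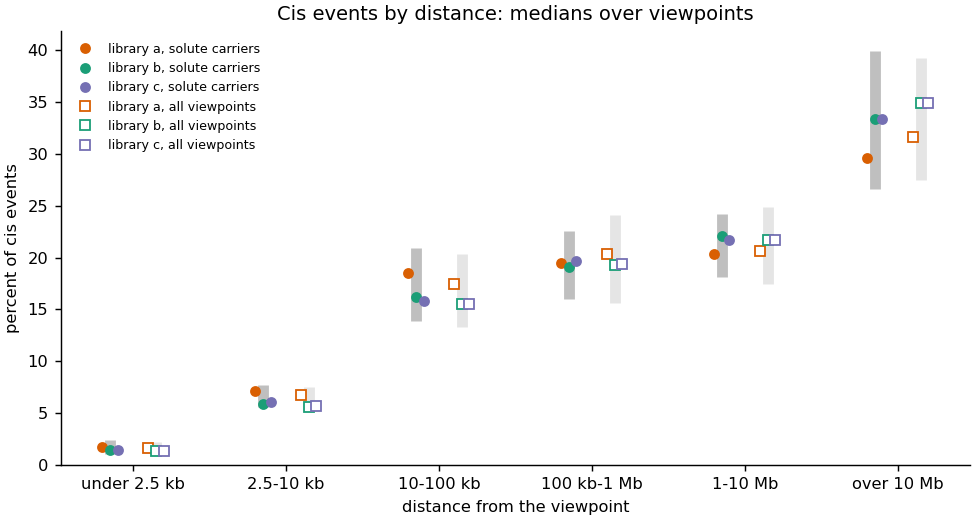
Percent of cis events in 6 ranges of distance from the viewpoint, as medians over the 115 solute carrier promoters (filled) and over all 6718 viewpoints with at least 1000 events (open), per library, with grey bars from the lower to the upper quartile. The quartile ranges overlap at every distance, and library a lies above b and c at 10 to 100 kb and below them beyond 10 Mb in both sets.

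Single members departed further from the median than the libraries did from each other. Slc25a39, the mitochondrial glutathione carrier needed for heme synthesis, placed 38.1%, 34% and 35.4% of its events at 10 to 100 kb, the highest share of the 115. Slc43a1_a, a promoter of a carrier of large neutral amino acids, followed with 34.6%, 30.7% and 28.9%, and Slc22a5, the carnitine importer, with 32.2%, 30.4% and 29.5%. Without 2 adjoining fragments in Slc22a21, one of them the fragment printed above (an alternative chosen after seeing the data), Slc22a5 placed 13.6%, 12.5% and 11.9% there (12.9% ± 0.974), and 89 members had a higher share, so its rank rested on them. The lowest were Slc25a36 (8.99%, 7.67% and 7.63%), Slc17a5 (9.8%, 8.09% and 7.99%) and Slc30a4 (10.1%, 9% and 8.48%). All 3 lowest belonged to the very deep viewpoints, and the inactive control list as a whole had a median of 11.2% ± 1.4. Of the other well-known carriers, the phosphate carrier Slc20a1 placed 30.1% ± 3.15 in this range, the glutamine carrier Slc1a5 27.3% ± 1.3 and the mitochondrial iron carrier Slc25a28 16.1% ± 1.31. The lactate carrier Slc16a1 placed 23.5% ± 3.38 there and the glycine carrier Slc6a9 20.3% ± 3.61.

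Alternative promoters of the same gene gave like shares. The 3 promoters of Slc43a1, named a, b and c, placed 32.2% ± 3.45, 33.2% ± 6.2 and 35.1% ± 3.7 of their events at 10 to 100 kb, although b and c had only 582 and 459 events. For the zinc and manganese importer Slc39a8 the values were 13.9% ± 1.13 and 12.4% ± 0.753. Such promoters are neighbours on the chromosome, so their profiles are not independent.

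Contacts of 11 of 115 members (9.57%) were one-sided, in the sense that, from 2.5 kb to 1 Mb, one side of the viewpoint held at least 2 times the events of the other in each library. Among all viewpoints with 1000 events 560 of 6718 were, a background of 8.34%, so one-sidedness was about as frequent in solute carriers as elsewhere. The excess lay downstream, in the direction of transcription, for 7 of them and upstream for 4, beside 316 and 230 over all one-sided viewpoints with a strand. Slc25a39 was the most downstream, with 75.1%, 75.4% and 76.1% of events on that side (75.4% ± 0.475, exact binomial 95% interval of the sum 74.6 to 76.5%). Fkbp15_Slc31a1, the promoter pair of the copper importer Slc31a1, had 72.5%, 69.8% and 70.2%. The urea carrier of the Kidd blood group, Slc14a1, had 70.9%, 71% and 69.1%, and the Golgi sodium-proton exchanger Slc9a8 71.8%, 70.3% and 69.9%.

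The most upstream were both promoters of Slc3a2, the heavy chain of the heterodimeric amino acid transporters. Snhg1_Slc3a2 had 21.2%, 21.2% and 22.3% of events downstream, and the Slc3a2 viewpoint inside the gene 20.5%, 23.8% and 24.2%. Slc22a5 followed with 26.5%, 27.8% and 28.9%, a value that includes the Slc22a21 fragment printed above. Without that fragment and the one beside it, Slc22a5 had 43.3%, 45.5% and 47.9% of events downstream and was no longer one-sided, which left 10 members.

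For 92 members the gene reached at least 10 kb past the viewpoint, and contacts along the gene body could be set against those at the same distances on the other side. Observed counts were divided by the count expected from distance and from the total of the viewpoint within 1 Mb. The median of this ratio of observed to expected was 1.18 ± 0.0124 along the body and 1.07 ± 0.00884 on the other side. The ratio of body to other side had a median of 1.08 ± 0.00354 over the members and 1.07 ± 0.000118 over the 4870 viewpoints of all genes that long. The body was above the other side in each library for 44 of 92 members, beside a background of 45.5%, and below it in each for 25.

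The strongest contrast was that of Slc9a8, where the body was 3.45, 3.3 and 3.06 times the other side in a, b and c. Slc19a2, a thiamine importer, followed with 3.24, 1.76 and 2.36, and Slc7a5_BC048644, of the large amino acid carrier LAT1, with 2.71, 3.2 and 1.71. The lowest was Slc18a1_Atp6v1b2, of a vesicular monoamine carrier, with 0.559, 0.603 and 0.657, followed by Slc25a32_Dcaf13, of a mitochondrial folate and flavin carrier, with 0.699, 0.555 and 0.694. Both viewpoints also name a second gene, and the side on which that gene lies was not examined. Slc30a9, a zinc carrier linked to mitochondria, had 0.697, 0.666 and 0.599, with an observed to expected ratio above 1 on both sides.

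**Figure D3:**
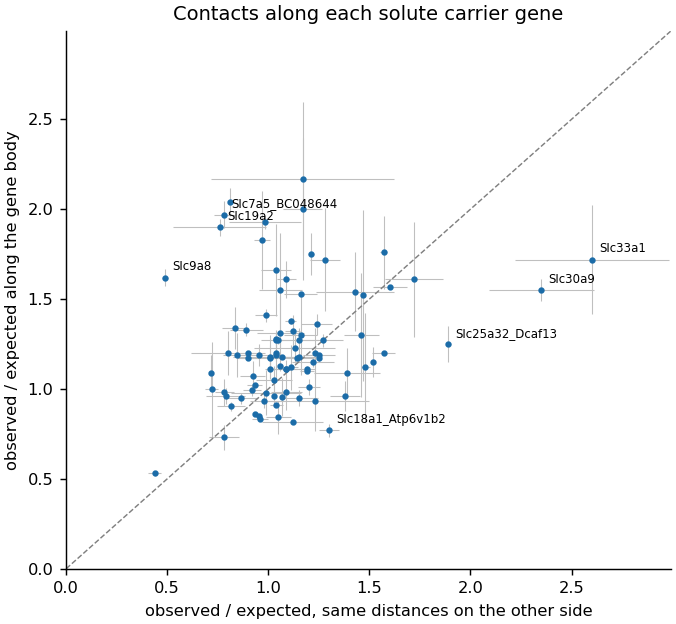
Observed over expected events along the gene body (vertical) and over the same distances on the other side (horizontal) for 92 solute carrier genes. Points are means and bars SDs of 2 replicates, and the dashed line marks equal values. Most points lie near the line, with Slc9a8 far above it and Slc30a9 below.

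To find distal sites that single promoters contacted more than their distance predicts, events were summed over 5 kb windows up to 1 Mb and each window was tested against the distance expectation with a negative binomial test over all viewpoints (Benjamini-Hochberg adjusted p under 0.05, and above expectation in each library). Of 37465 windows of members, 51 were called (0.136%), beside a background of 0.173% over all 2266044 windows. They belonged to 25 of 115 members (21.7%), beside a background of 26.5% of viewpoints. Adjusted p of these windows ran from 6.98e-101 to 0.0484 by the negative binomial test, whose spread is that between windows at like distance over all viewpoints, not that between animals. A called window stood at a median of 5.28 times expectation (3.23 to 47.4), against 5.89 over all called windows, and at a median distance of 115 kb, against 215 kb. The counts depended on how much of the upper tail was left out when the spread was estimated: with none left out 6 windows in 5 members were called, and with 1% left out 99 in 40. With each library left out in turn 8 of the 25 members kept a called window each time: Slc25a39, Slc16a6_Arsg, Fkbp15_Slc31a1, Slc14a1, Slc22a4 (with 1 of its 2 windows inside the gene), Slc22a5, Slc30a9 and Slc38a9 (not the same window each time). The other 17 lost theirs without at least 1 library.

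The 51 windows fell into 35 runs of adjacent windows, 37 windows downstream (72.5%) and 14 upstream, where 52.5% of the 3820 called windows of all viewpoints with a strand lay downstream. Windows of 1 member are not independent, and 8 of the 37 belong to Slc25a39. In 10 of the 11 members with more than 1 called window, all of them lay on the same side, as in 82.0% of the 851 such viewpoints overall. A protein-coding gene start lay in 18 of 51 called windows (35.3%), against 8.22% of all windows tested in members and 29.1% of called windows of all viewpoints. Another captured promoter lay in 14 (27.5%, against 3.39% and 23.6%). None of the 51 came from the 5 members of the deep regions or from the 3 inactive control promoters, which had 1190 windows tested. On the inactive control list as a whole, 26 of 187 viewpoints had a called window (13.9%).

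**Figure D4:**
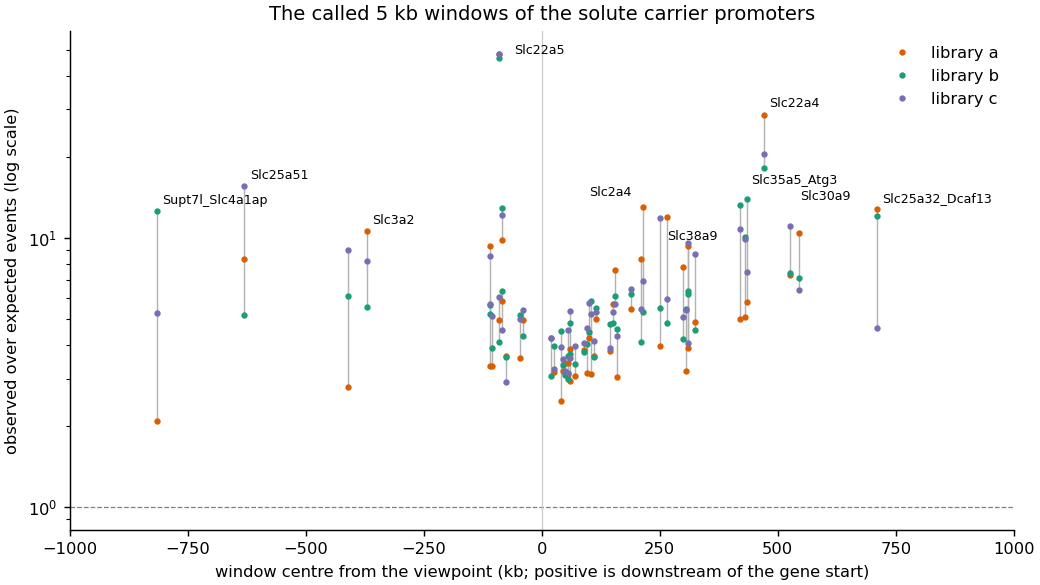
Observed over expected events (log scale) of the 51 called 5 kb windows by distance from the viewpoint, positive downstream of the gene start, with a point for each library and a grey line from the lowest to the highest. The 10 members with the highest windows are named, Slc22a5 and Slc22a4 stand apart from the rest, and every point lies above the dashed line at 1, as the call required.

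Members were also grouped by the number of their Slc family, so Supt7l_Slc4a1ap counts with the ion exchangers although its protein is no transporter, and the copper importer Slc31a1 with the remaining families. Called windows were found for 5 of 26 mitochondrial carriers (13 windows), 5 of 10 carriers of monocarboxylates and organic ions (12), 4 of 18 amino acid carriers (5), 4 of 12 ion exchangers (5), 3 of 18 nucleoside and nucleotide sugar carriers (5), 1 of 11 zinc and other metal carriers of the Slc30 and Slc39 families (3) and 1 of 4 sugar carriers (1). The remaining families gave 7 windows, from Fkbp15_Slc31a1 and Slc14a1, and neither the 5 phosphate carriers nor the 5 vitamin and lipid carriers had any. Over all viewpoints the share with a called window was 26.5%. The 5 carriers of monocarboxylates and organic ions include Slc22a5, whose windows hold the doubted fragments in Slc22a21. They also include Slc16a6 and Slc16a6_Arsg, adjacent fragments that both had a called window over Wipi1. These sets are small, and no family was tested against the others. For comparison, 5 of 21 promoters of ABC transporters and 4 of the 5 erythroid carriers set aside had a called window.

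Slc25a39 had the most, 8 windows downstream, all of them over genes of the adjacent Slc4a1 to Atxn7l3 interval. Slc4a1 encodes band 3, the chloride-bicarbonate exchanger of the red cell membrane. From 42.5 to 62.5 kb, 4 adjacent windows covered Slc4a1, and the first of them, chr11:102221191-102226190, held 87, 126 and 127 events in a, b and c (3.32 ± 0.185 times expectation). From 87.5 to 102.5 kb, 3 more covered Ubtf, a transcription factor of ribosomal RNA genes, where the window at 97.5 kb (chr11:102166191-102171190) held 34, 50 and 61 events (4.67 ± 0.603 times). The last, at 107.5 kb with 29, 41 and 45 events, held the start of Atxn7l3, a subunit of the SAGA deubiquitinase module.

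Each library stood at 2.95 times expectation or more in each of these windows. The windows between them were also above expectation in each library, while the mean of the libraries was below it in every window plotted upstream. Seen in reverse, the window over Slc25a39 stood at 7.03 ± 0.223 times expectation from the viewpoint Ubtf_a (adjusted p = 6.22e-05 by the negative binomial test), at 3.65 ± 0.853 from Ubtf_b (adjusted p = 0.0524) and at 3 ± 0.245 from Slc4a1 (adjusted p = 0.0662). From the other viewpoints within reach, the same 8 windows stood at 1.25 to 2.23 times their own expectation. Without library a all 8 were called, without b 5 and without c 3. Without chromosome X and the deep stretch of chromosome 9 in the fit 2 were called, and 0 with none of the upper tail left out. With the expectation set per base of listed fragments 3 were called, and the window at 97.5 kb fell from 4.85 to 2.74 times in the sum of libraries (adjusted p = 0.412 by the negative binomial test).

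Fkbp15_Slc31a1 had 4 adjacent windows from 142.5 to 162.5 kb downstream, which ran from the start of Hdhd3 over Alad, the heme pathway enzyme that joins aminolevulinate molecules into porphobilinogen. The highest, chr4:62173694-62178693 within Alad, held 30, 41 and 38 events (6.73 ± 1.23 times). The window with the Alad promoters held 12, 31 and 29 (3.75 ± 0.997). The reverse view was weaker: from Alad_a the window over Slc31a1 stood at 1.99 ± 0.286 times (adjusted p = 0.928 by the negative binomial test), and from Alad_b it held 1 event where 3.91 were expected. Other viewpoints saw the same 4 windows at 2.74 to 3.92 times expectation, so the Alad stretch was above expectation for more than this viewpoint.

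Slc16a6_Arsg, the promoter shared by a ketone body carrier and the sulfatase Arsg, had 5 windows upstream of Slc16a6, which is the direction of Arsg. At 82.5 kb (chr11:109416815-109421814, inside Arsg) it held 25, 39 and 26 events (5.63 ± 0.275 times), and with the expectation per base it was not called (adjusted p = 0.0831 by the negative binomial test). At 107.5 kb, in Wipi1, an autophagy gene, it held 13, 32 and 30 (4.5 ± 1.65). The adjacent captured fragment Slc16a6, counted separately, had 1 called window, also at 107.5 kb over Wipi1, with 8, 6 and 9 events (8.12 ± 1.73). These viewpoints lie side by side and share a neighbourhood, and from the Wipi1 promoter the window over them stood at 3.05 ± 1.91 times (adjusted p = 0.126 by the negative binomial test).

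Slc30a9 contacted Tmem33, which encodes an endoplasmic reticulum membrane protein, across 2 windows from 37.5 to 47.5 kb upstream. The nearer, chr5:67655876-67660875, held 31, 47 and 59 events (4.91 ± 0.0814 times), and the farther, with the Tmem33 start, 20, 51 and 49 (4.33 ± 1.06). The reverse window from Tmem33 was also called, at 3.47 ± 1.27 times (adjusted p = 0.0476 by the negative binomial test). Another window of Slc30a9, 522.5 kb downstream inside the lipid flippase gene Atp8a1, held 3, 6 and 9 events (8.26 ± 1.38) and was not called without c or with the expectation per base (5.89 against 8.84 times in the sum). The Tmem33 window at 42.5 kb was, with the pair of Slc22a5, the only one called at every one of the 11 other settings tried at this window size.

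**Figure D5:**
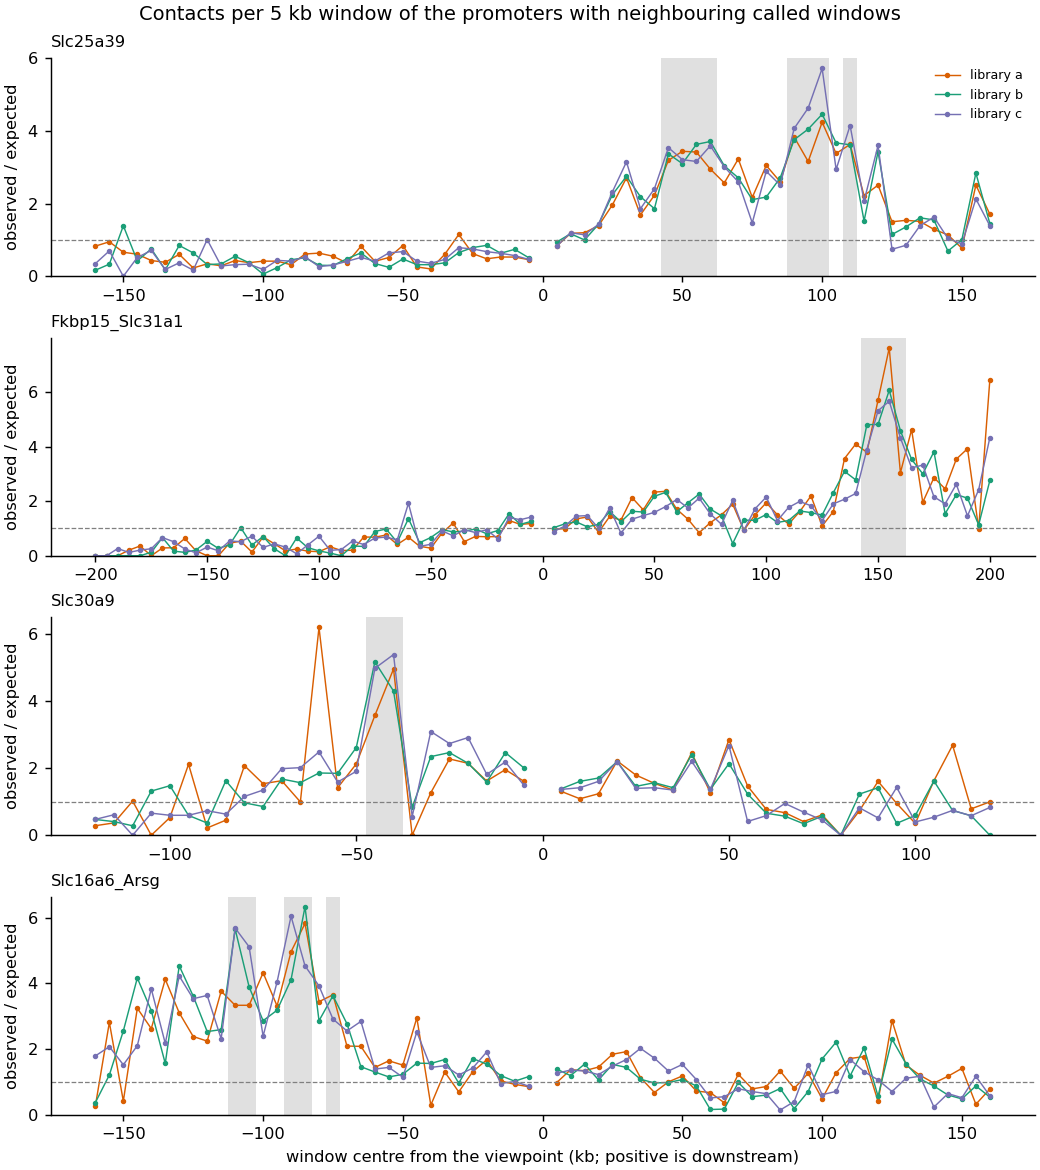
Observed over expected events in 5 kb windows around Slc25a39, Fkbp15_Slc31a1, Slc30a9 and Slc16a6_Arsg by distance from the viewpoint in kb, positive downstream, per library. Called windows are shaded, the dashed line marks 1, and for Slc25a39 all upstream windows lie low while the downstream side is raised beyond the shaded stretches.

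Slc14a1 contacted the ATP synthase gene Atp5a1 in 3 adjacent windows from 297.5 to 312.5 kb downstream, with 14, 14 and 17 events, then 6, 19 and 19, then 16, 20 and 13 (6.2 ± 2.22, 4.31 ± 1.59 and 7.28 ± 2.94 times). From the Atp5a1 promoter the reverse window held 7 events where 1.3 were expected, none of them in library a. Without a or without b 2 of the 3 windows of Slc14a1 were called, without c 1, and 0 with none of the upper tail left out. From the 5 other viewpoints in reach, pooled, they stood at 2.6, 2.68 and 3.28 times expectation. At 297.5 and at 307.5 kb, 1 of these viewpoints was at least as high as Slc14a1. Slc35a5_Atg3, the E-box promoter printed above, had 3 windows from 417.5 to 437.5 kb over BC027231 and Gtpbp8 with 12, 20 and 19 events in the sum, and library a gave 1, 2 and 2 of these. Without b none of the 3 was called, without a 2 and without c 1. With the expectation per base the window at 417.5 kb fell from 10.8 to 5.11 times in the sum of libraries (adjusted p = 0.332 by the negative binomial test). From the Gtpbp8 promoter the reverse window stood at 4.73 ± 0.443 times expectation (adjusted p = 0.0882 by the negative binomial test).

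Slc38a9, the lysosomal arginine sensor that signals to mTORC1, contacted the start shared by the RNA helicase genes Dhx29 and Skiv2l2 at 262.5 kb with 9, 7 and 8 events (8.64 ± 4.63 times, with 11.9 in a, 4.82 in b and 5.91 in c). A second window, at 247.5 kb, held 3, 8 and 16 events (6.32 ± 3.32). Without library a only the window at 247.5 kb was called, without c only that at 262.5 kb, and with the expectation per base neither. The reverse window from Dhx29 was called, at 7.94 ± 1.65 times (adjusted p = 0.00688 by the negative binomial test). Slc9a8 contacted the Ube2v1 start, of a ubiquitin-conjugating cofactor, at 207.5 kb with 19, 13 and 17 events (6.56 ± 2.51), a window not called without a or with the expectation per base, and from Ube2v1 the reverse stood at 3.04 ± 0.0403 (adjusted p = 0.275 by the negative binomial test). Slc25a51, the mitochondrial NAD carrier, contacted the start of Tmod1, the red cell tropomodulin, 627.5 kb upstream, with only 2, 2 and 6 events (9.38 ± 1.46), and with any 1 library left out or with the expectation per base it could not be tested.

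Slc25a3, the mitochondrial phosphate carrier, contacted the divergent start of Apaf1 and Ikbip at 37.5 kb with 15, 38 and 32 events (3.33 ± 1.23). Slc25a32_Dcaf13 had 2 windows between genes, at 542.5 and 707.5 kb, with 15 events each (8.56 ± 2.54 and 10.5 ± 3.16). Slc3a2 contacted a window overlapping Scgb1a1 367.5 kb upstream with 6, 5 and 8 events (8.74 ± 2.67), and Slc2a4, the insulin-responsive glucose carrier, a window overlapping Polr2a at 212.5 kb with 6, 3 and 4 (9.53 ± 4.83). With the expectation per base that of Slc3a2 fell from 7.76 to 4.98 times in the sum (adjusted p = 0.222 by the negative binomial test) and that of Slc2a4 from 8.09 to 4.95 (adjusted p = 0.241). The window of Slc3a2 was not called without a or c, that of Slc25a3 without b or with the expectation per base, and that of Slc25a32_Dcaf13 at 707.5 kb without a or b. Without c the latter could not be tested, nor could that of Slc2a4 with any 1 library left out. Supt7l_Slc4a1ap reached the Dpysl5 start at 812.5 kb with 1, 12 and 5 events, where library a alone stood at 2.09 times, and its window was not called without b or with the expectation per base.

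The highest windows belonged to neighbouring carriers. Slc22a5 had 103, 273 and 255 events from 82.5 to 87.5 kb upstream and 568, 1111 and 1127 from 87.5 to 92.5 kb (11.2 ± 1.9 and 47.7 ± 0.679 times). Almost all lay in 2 fragments that adjoin, one of 780 bp in an exon of Slc22a21 with 556, 1071 and 1094 events and the 56 bp beside it with 90, 248 and 229. The first is the paralog fragment printed above, which shared 30-base words with the viewpoint, so capture or alignment of the paralog cannot be told apart from ligation. It was the only called window of any member with such a shared word, and without Slc22a5 the counts were 49 windows in 24 members.

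Slc22a4, the ergothioneine carrier next to it, had a window 467.5 kb downstream (chr11:53369126-53374125, between genes) with 8, 8 and 8 events (24 ± 6.64 times). The events were spread over the window, with 5 in the busiest of 12 fragments, and no fragment shared a word with this viewpoint of only 138 bp. From the 9 other viewpoints in reach the window stood at 1.24 times expectation, and none stood as high. With any 1 library left out the window could not be tested, because fewer than 1 event was then expected in it. Its other 2 windows, from 17.5 to 27.5 kb, lay within Slc22a4 itself (3.96 ± 0.422 and 3.39 ± 0.307 times).

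Of the 51 called windows, 25 also stood at least 2 times above expectation when seen from the other viewpoints within 1 Mb, pooled, and 4 stood below 1. In 34, no other viewpoint was as high as the member, which includes 2 of Slc30a9 that no other viewpoint could read. The windows had been called on the member's own count, which favours the member here. The same count for windows called from other viewpoints was not taken, so the 34 were not read as a trait of these promoters. In the reverse view, 23 of 25 distinct windows that could be read from a promoter named in a called window lay above expectation, with a median of 2.72 times, and 3 were called: Ubtf_a to Slc25a39, Tmem33 to Slc30a9 and Dhx29 to Slc38a9. A reverse count over the called windows of all viewpoints is not reported here, so these counts were not read as a trait of the members either.

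Calls made on b and c alone were read in library a, which the call had not used. Of 38 member windows called from b and c, 37 stood above expectation in a, at a median of 3.51 times against 5.14 in b and c, and 29 (76.3%) had an upper-tail p under 0.05 there by the negative binomial test. Over all viewpoints the share was 79.1%, and among all member windows read in a it was 3.33%.

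At single DpnII fragments 7 contacts of 5 members were called, 0.0014% of 499098 tested, beside a background of 0.00410%. Besides the Slc22a5 pair they were 1 in an intron of Tmem33 for Slc30a9 (5, 9 and 8 events, 8.99 ± 0.236 times), exons of Arsg and Wipi1 for Slc16a6_Arsg (9, 5 and 5, and 3, 9 and 6 events), an exon of Slc22a4 for its own promoter (2, 4 and 7), and a fragment between genes beside Atp5a1 for Slc14a1 (7, 3 and 3). Motifs were looked for in 4 of the 7, those of Tmem33, Arsg, Wipi1 and Slc22a4, and the 3 with a match are shown in part on the plus strand of mm9 with AGATAA or TGATAA, read on either strand, and the E-box in capitals.
Tmem33 fragment (chr5:67652810-67652909): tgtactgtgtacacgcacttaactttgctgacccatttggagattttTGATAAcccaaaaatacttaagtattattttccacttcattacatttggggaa
Arsg fragment (chr11:109418781-109418880): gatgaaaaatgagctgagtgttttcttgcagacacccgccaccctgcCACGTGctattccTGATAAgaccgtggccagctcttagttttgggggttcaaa
Wipi1 fragment (chr11:109446294-109446393): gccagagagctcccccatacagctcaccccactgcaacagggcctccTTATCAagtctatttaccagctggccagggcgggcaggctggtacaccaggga
Of fragments within 5% of their lengths on the same chromosome, 52.8%, 79.8% and 54.4% hold AGATAA or TGATAA, and 14.6% of those like the Arsg fragment hold CACGTG. The Tmem33 fragment also holds 1 CACGTG, outside the stretch shown, and 7.77% of those like it do. The called fragment within Slc22a4 held none of these letters.

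Solute carrier promoters within 1 Mb of each other were few. Over 19 pairs, seen in 37 directions, the fragments beside the other member held 173 events where 126 were expected (1.18, 1.41 and 1.46 times in a, b and c, 1.31 ± 0.178). With only the nearest fragment on each side counted, the ratio was 0.977, so the direction depended on that choice. Among the pairs with the most events, Slc3a2 to Snhg1_Slc3a2, promoters of 1 gene, had 5, 9 and 9 (1.22 ± 0.205), while the reverse direction held 3, 11 and 6 where 31.4 were expected (0.573 ± 0.159), below expectation in each library. Of different genes, Slc5a6_Atraid, of the biotin and pantothenate carrier, had 3, 8 and 5 events beside Mir5625_Slc35f6 at 400 kb and 3, 8 and 2 beside Supt7l_Slc4a1ap at 479 kb. The arginine carrier Slc7a1 had 3, 4 and 4 beside the lysosomal carrier Slc46a3 at 505 kb (7.45 ± 0.482 times), and the reverse direction held 2 events in all.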

How the data were processed

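The authors trimmed reads with Trim Galore, aligned them to mm9 with Bowtie (versions not given in the sources used here), called reporter fragments with CCseqBasic or its modification CCseqBasicM, and normalized them with CaptureCompare. The deposited signal gives each DpnII fragment as unique cis reporters per 100000 of the viewpoint, in 1 column per library without a header, so library names a, b and c carry no replicate number. Fragments that were themselves captured are not listed. Here all values, divided by the smallest value of their viewpoint and library, came out whole (100% within 0.01) and were read as events. Fragments came from an in silico GATC digest of NCBIM37 (6415222 fragments), genes from GENCODE vM1, and a strand was found for 123 of 124 members. RefSeq synonyms (GRCm38.p6) were used for names only.

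Expected counts followed 1 distance curve per library, scaled to each viewpoint's total from 2.5 kb to 1 Mb. Windows of 5 kb with at least 1 expected event and single fragments were tested in Python 3.11.15 (NumPy 2.4.6, SciPy 1.17.1) by an upper-tail negative binomial test, with the dispersion per distance bin estimated after leaving out the highest 0.1%, and Benjamini-Hochberg adjustment over all viewpoints with at least 1000 events. The test was also run on counts simulated from the same negative binomial model, with the outcome not reported here. Such a run cannot show how well the model fits these data. Totals per library were 18211066, 34393796 and 34199631 events. Intervals cover counting error only.

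Named genes were carriers known from red cells, the 3 highest and 3 lowest members in depth, 10 to 100 kb share and side, the 10 members with the highest and the 5 with the most windows, and the 5 member pairs with most events. Other genes were named after their values were seen. The values of some single members are not reported here. The members, lists and this rule were chosen with earlier results of these data known. Slc2a1, Slc12a7 and Slc38a5 had no viewpoint of that name among the members. Inactive controls were matched by fragment position to the study's list of inactive oligonucleotides. This gave 187 viewpoints, a few more than the inactive promoters the study counts, and the difference was not resolved.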

Additional observations from a re-analysis of the deposited data

How the results depend on the processing

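The number of called windows and fragments depended on the processing more than any other value. With none of the upper tail left out, 6 windows in 5 members and 2 fragments were called, with 1% left out 99 in 40 and 41, and with Poisson counts 2163 in 115 and 2297, against 51 in 25 and 7. An expectation per base gave 31 windows in 15 members, 23 of them among the 51, and a minimum of 5000 events 33 in 13. Leaving out 1 library gave 22 to 38 windows in 13 to 19 members (22 without c, 26 without b and 38 without a) and 5 to 10 fragments. Without chromosome X and the deep stretch of chromosome 9, 35 of the 51 remained, and 2 of the 8 of Slc25a39. The 14 named windows gave 125 values under 11 alternatives, of which 99 were still called, 26 were not and none fell below expectation, and 29 more could not be tested. Poisson counts and 1% left out only loosened the test and kept all 51 calls, so they add little to the 99. Neither these nor the setting with none left out could change a ratio to expectation. Windows of 2 and 10 kb gave 53 and 39 calls. Without Slc22a5, an alternative chosen after seeing the data, 49 windows in 24 members remained.

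A minimum of 5000 events kept 70 members. One side exceeded the other 1.5 times in 28 members and 3 times in 3, and leaving out 1 library gave 11 to 12 at 2 times. The median share at 10 to 100 kb was 14.6% with events summed over members, and at 100 kb to 1 Mb 17.8%, where the other settings gave 19.7% without the deep regions, 19.5% for all members, 19.8% at 5000 events and 19.6 to 19.9% without 1 library. Body over other side was 1.06 per base and 1.06 for genes reaching 20 kb, and 1.07 to 1.09 without 1 library. Contacts beside other members fell to 0.977 times expectation when only the nearest fragment was taken. The cause was not tested. No paired analysis was possible because there is 1 group and the columns carry no replicate number. With 3 libraries and few events per distal window, a contact that was not called cannot be read as absent.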
